A study of Mus musculus with 8 samples.

Results

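The Myc-Max network was examined here through 10 genes, *Mycn*, *Myc*, *Mycl*, *Max*, *Mxd1*, *Mxi1*, *Mxd3*, *Mxd4*, *Mnt* and *Mga*, picked by gene symbol from the 14608 genes of the expression table, and all 10 were present. The tissue was outflow tract (OFT), the vessel that joins the embryonic heart to the aortic arch arteries, dissected from mouse embryos at E11.5. Poly-A RNA was sequenced in 4 control libraries and in 4 libraries from *Mib1V943F/+ Gata6STOP/+* embryos, called mutant here. These embryos carry 1 missense allele of *Mib1*, a ubiquitin ligase needed for Notch ligand activity, and 1 null allele of the transcription factor gene *Gata6*. Both alleles are germline alleles present in every cell, and no single-mutant group was sequenced. The control libraries are titled WT and are otherwise described only as control. By the series design each library pooled tissue from 3 individuals, while the methods of the study give other numbers of pools and embryos, so the number of embryos behind a library is not settled. P-values below measure the spread between these pools. *Mycn* was selected on its difference between these same groups, which was known beforehand, and the other genes were chosen by their place in its network, so differences of the 10 genes are given as descriptions, without a test.

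MYC family proteins are transcription factors that bind DNA only as dimers with MAX, at the E-box CACGTG, and are known for raising ribosome production, biosynthesis and cell growth. MXD proteins, MNT and MGA compete for the same partner, and most of these alternative dimers recruit repressor complexes to the same sites. *Mycn* is the family member best known in the embryonic heart, where it is needed for proliferation of the myocardium.

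The level of each library is given as CPM, the read count of a gene scaled to library size after the TMM scaling that the study applied across libraries. The spacing of the values put depth between 10669420 reads on the listed genes (control replicate 2) and 30469165 (mutant replicate 3), so that 1 read was worth between 0.0325 and 0.0948 CPM. Control replicate 2 was the shallowest library and the other 7 held at least 21064242 reads. Neither mutated gene separated the labels. *Gata6* mRNA lay between 236 and 279 CPM in the controls and between 213 and 284 CPM in the mutant libraries. *Mib1* read 107 to 138 CPM in the controls and 123 to 137 CPM in the mutant libraries. The study states that quantitative PCR put *Gata6* mRNA in this genotype at the reduced level predicted for a heterozygote. These libraries did not show that reduction, with means of 262 ± 18.5 CPM in the controls and 249 ± 36.1 CPM in the mutant libraries (SD). The reason for the difference was not tested. A level per gene does not tell mutant from normal transcripts of a heterozygote, and these values check no label. Mutant replicate 1 stood apart in a few genes, *Irx1* among them at 38.5 CPM against at most 5.48 CPM in any other library, and the values below that turn on it are also given without it.

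Promoter sequence was available for 9 of the 10 genes (RefSeq, GRCm38.p6, 250 bases before to 50 bases after each start, 11 windows since *Mxi1* has several starts), *Myc* being the gene without an entry. The window of *Mycn* is shown because this gene carries the difference between the groups. It holds the letters TTTGGCGC, a form of the E2F motif, at 2 places, in capitals, 183 and 168 bases before the RefSeq start. The 172 bases printed end just before the Ensembl start of the gene (chr12:12941915-12942086, minus strand, read 5′ to 3′).
Mycn promoter: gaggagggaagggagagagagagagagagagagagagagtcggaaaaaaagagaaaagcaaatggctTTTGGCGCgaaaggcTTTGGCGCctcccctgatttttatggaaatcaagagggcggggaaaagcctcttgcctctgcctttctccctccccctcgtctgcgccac

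The E-box that MYC-MAX and MXD-MAX dimers bind was found in 3 of the 9 genes, and the surrounding 30 bases are shown for each with the E-box in capitals, because these genes encode partners or antagonists of the MYC proteins themselves. The windows are chr5:34187912-34187941 for *Mxd4* (minus strand, E-box from 219 bases before the start), chr11:74830789-74830818 for *Mnt* (plus strand, from 123 bases before the start) and chr12:76962234-76962263 for *Max* (minus strand, from 3 bases before the RefSeq start and so across it).
Mxd4: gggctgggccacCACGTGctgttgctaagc
Mnt: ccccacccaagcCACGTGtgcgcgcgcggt
Max: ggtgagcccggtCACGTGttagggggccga

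Over all 32851 RefSeq promoter windows of the same length, 7.15% hold CACGTG, which reads the same on both strands. Any of 4 E2F forms (TTTGGCGC, TTTCGCGC, TTTCCCGC or TTTGCCGC, either strand) is found in 2.26%, and among the network only in *Mycn*. GATA motifs, searched as AGATAA and as the forms AGATAG, then TGATAA and lastly TGATAG on either strand, occur in 29.8% of windows and the RBPJ motif GTGGGAA in 6.38%, and neither is found in the 11 windows of the network. No E-box and E2F match of the network overlap, as they lie in different genes. These motifs were chosen after the sequences were seen, a match describes letters and not binding, and the end of the *Max* window did not match an annotated Ensembl transcript whereas the ends of the other windows did.

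*Mycn* (ENSMUSG00000037169, chromosome 12, 12936093 to 12941914, minus strand), which encodes N-MYC, read 55.0, 66.9, 58.2 and 55.8 CPM in control replicates 1 to 4. It read 49.3, 45.6, 43.3 and 42.0 CPM in mutant replicates 1 to 4. All 4 mutant libraries lay below all 4 controls, with a gap of 5.79 CPM between the lowest control and the highest mutant library. The means were 59.0 ± 5.47 CPM and 45.0 ± 3.18 CPM (SD, n = 4 each), a percent difference of -23.7%. On the log2(CPM + 0.5) scale the difference, mutant minus control, was -0.38 (SE 0.08). It stayed between -0.43 and -0.32 when each library was left out in turn. Control replicate 2, the highest and the shallowest, did not make the separation, since the other 3 controls were also above every mutant library. After the trend of each library with transcript GC content was removed the difference was -0.31, and the groups still did not overlap.

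*Myc* (chromosome 15, 61985391 to 61990374), the founding family member, read 20.5, 23.8, 24.5 and 26.9 CPM in the controls and 26.1, 23.0, 25.0 and 24.8 CPM in the mutant libraries. The mutant values all lay inside the range of the controls. Its log2 difference was 0.05 (SE 0.09), and it ranged from -0.02 to 0.11 over the fits that left out 1 library.

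*Mycl* (chromosome 4, 122995652 to 123002485), which encodes L-MYC, was the lowest of the network, at 1.59, 1.52, 1.33 and 1.54 CPM in the controls. The mutant libraries read 5.60, 1.43, 1.89 and 1.60 CPM, so that mutant replicate 1 was far above the rest and the other 3 were near the controls. The log2 difference of 0.48 (SE 0.31) rested on that library and was 0.10 without it.

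*Max* (chromosome 12, 76937269 to 76962201) encodes the partner that MYC proteins need for binding DNA and that MXD proteins also use. It read 39.4, 39.2, 41.1 and 42.2 CPM in the controls and 42.8, 41.7, 47.1 and 43.9 CPM in the mutant libraries. Only mutant replicate 2 fell within the control range, below control replicate 4. The log2 difference was 0.11 (SE 0.07), opposite in sign to that of *Mycn*, and lay between 0.08 and 0.14 with each library left out.

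The 4 genes of the MXD family encode antagonists that accompany cell cycle exit and differentiation. *Mxd1* (chromosome 6, 86647042 to 86669161) read 17.2, 22.8, 19.9 and 21.2 CPM in the controls and 20.7, 14.8, 18.9 and 16.8 CPM in the mutant libraries. The groups overlapped, with the 2 lowest values in mutant libraries, and the log2 difference was -0.19 (SE 0.12).
*Mxi1* (chromosome 19, 53310518 to 53375810) ranged from 52.6 to 58.9 CPM in the controls and from 50.6 to 66.4 CPM in the mutant libraries, with a log2 difference of 0.02 (SE 0.09) that turned to -0.06 at its lowest when 1 library was left out. *Mxd3* (chromosome 13, 55325168 to 55329823), which is known for its expression in proliferating cells, ranged from 9.26 to 14.5 CPM and from 9.34 to 11.7 CPM, with a difference of -0.14 (SE 0.15). The groups overlapped for both genes.
*Mxd4* (chromosome 5, 34173883 to 34187720) read 83.5, 81.8, 92.9 and 82.8 CPM in the controls and 83.1, 70.9, 81.0 and 83.0 CPM in the mutant libraries. Control replicate 3 was high and mutant replicate 2 low, the remaining 6 libraries lay between 81.0 and 83.5 CPM, and the log2 difference was -0.10 (SE 0.07).

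*Mnt* (chromosome 11, 74830920 to 74845725), an antagonist expressed in dividing and resting cells alike, ranged from 33.7 to 39.4 CPM in the controls and from 32.2 to 36.7 CPM in the mutant libraries. Its log2 difference of -0.09 (SE 0.08) became 0.03 once the GC trend was removed. *Mga* (chromosome 2, 119897228 to 119969581) encodes a very large protein with both a T-box and a MAX-binding domain, and it had the highest mean CPM of the network. It ranged from 87.4 to 108.8 CPM in the controls and from 93.7 to 126.1 CPM in the mutant libraries, where only replicate 2 exceeded the controls, with a difference of 0.10 (SE 0.10).

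**Figure D1:**
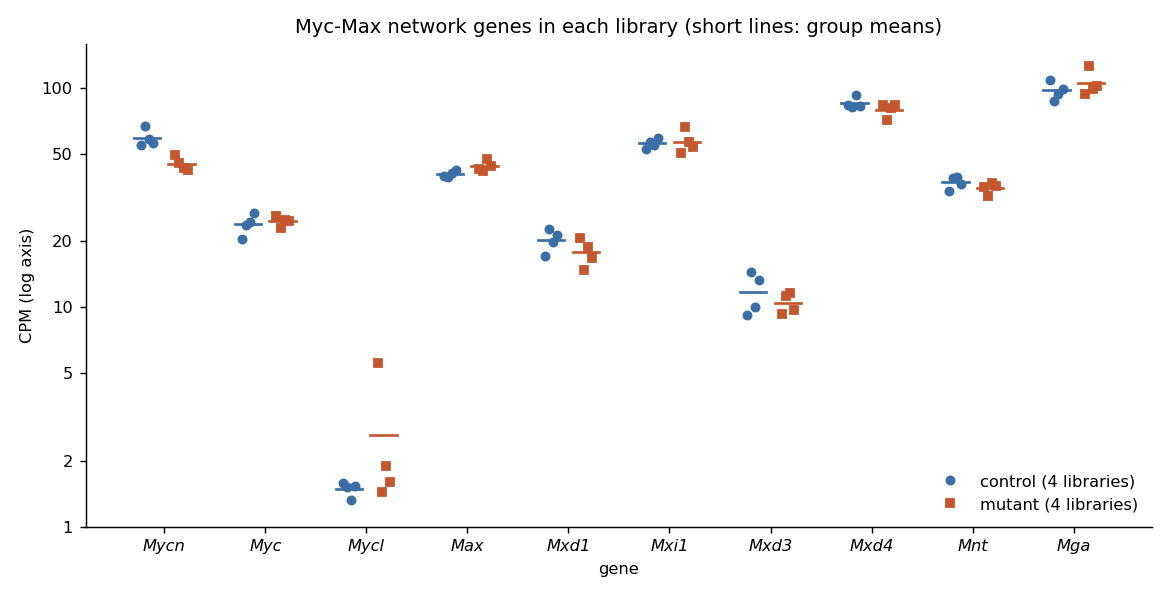
CPM of each of the 10 genes (log axis) in 4 control libraries (circles) and 4 mutant libraries (squares), with short lines for the group means. The 4 mutant libraries of *Mycn*, at 42.0 to 49.3 CPM, sit below the controls, at 55.0 to 66.9 CPM, whereas the groups of the other 9 genes overlap and *Mycl* has 1 mutant library at 5.60 CPM.

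Groups that do not overlap were found for 1 of the 10 genes, *Mycn*, on the lower side. Of all 14608 genes, 3.9% had every mutant library below every control and 3.2% had every mutant library above. Since *Mycn* was chosen from this contrast, nothing is read from its place in that count. *Max* joined it when control replicate 4 was left out, where 14.6% of all genes did not overlap in either direction. *Max* and *Mycl* joined it when mutant replicate 2 was left out, where 9.70% of all genes did not overlap. At an adjusted p under 0.05 in limma, fitted and adjusted over all 14608 genes, 0.0% of genes were called in either direction, and so none of the network. With a generalized linear model in edgeR at the same threshold, the study did report differentially expressed genes for this genotype against control. The absence of calls therefore holds for the limma fit only. At an unadjusted limma p under 0.05, 5.45% of all genes were higher and 6.62% lower in the mutant libraries, 796 and 967 genes, a split that became 1161 and 740 genes without the TMM factor.

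**Figure D2:**
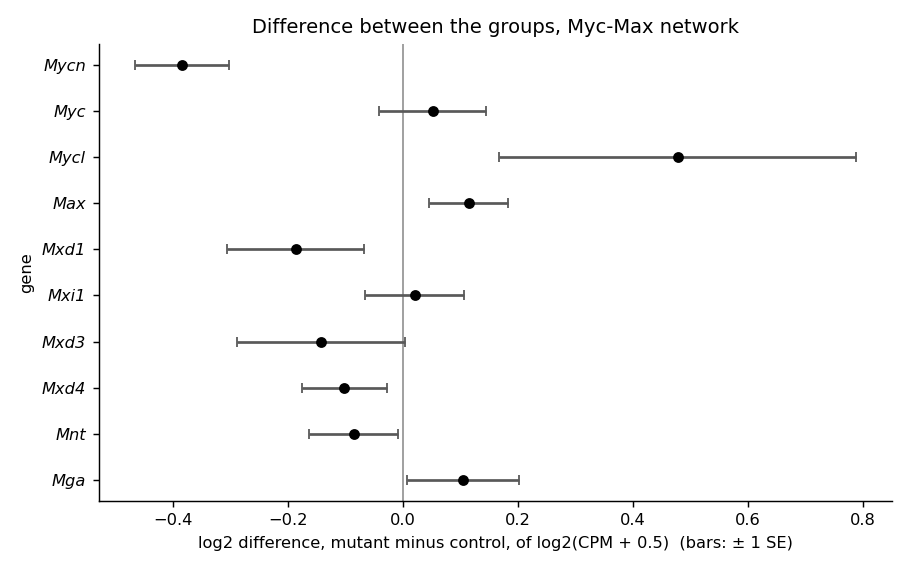
Log2 difference, mutant minus control, of log2(CPM + 0.5) for each gene, with bars of 1 SE. *Mycn* lies at -0.38 and *Max* at 0.11, and the bar of *Mycl*, at 0.48, is the widest of the 10.

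To compare the genes with one another, CPM was divided by the length of the merged exons in kilobases. In the controls the order was *Mycn* with 17.9 ± 1.66 CPM per kb, *Max* with 11.3 ± 0.398, *Mxd4* with 10.1 ± 0.603, *Myc* with 8.81 ± 0.984, *Mxi1* with 8.18 ± 0.397 and *Mnt* with 8.02 ± 0.562, followed by *Mga* with 6.34 ± 0.593, *Mxd3* with 4.98 ± 1.08, *Mxd1* with 2.87 ± 0.335 and *Mycl* with 0.370 ± 0.0277 CPM per kb (SD, n = 4). The ranges of neighbours in this order overlapped from *Max* down to *Mnt*, and again for *Mga* and *Mxd3*. They did not overlap for *Mycn* and *Max*, *Mnt* and *Mga*, *Mxd3* and *Mxd1*, or *Mxd1* and *Mycl*. By this measure *Mycn* was the highest of the network in every control library. Merged exons join all annotated transcripts of a gene, 8483 bases for *Mxd4*, 3598 for *Max* and 3295 for *Mycn*. They can be longer than the transcripts present, so the order of the genes and ratios between them depend on these lengths. In the mutant libraries it averaged 13.7 ± 0.965 CPM per kb and *Max* 12.2 ± 0.650 CPM per kb.

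The balance within the network follows from these levels and so uses the same values that chose *Mycn*. *Mycn* made up 67.8%, 69.0%, 65.4% and 62.2% of the summed CPM per kb of the 3 family genes in control replicates 1 to 4. The mutant shares were 57.6%, 61.1%, 57.6% and 57.3%, all below the controls, and *Myc* accounted for nearly all of the remainder, with a mean share of 38.9% against 32.5% in the controls. The ratio of *Mycn* to *Max* per kb averaged 1.60 ± 0.186 in the controls and 1.12 ± 0.120 in the mutant libraries (SD, n = 4 each), with control ratios of 1.44 and above and mutant ratios of 1.26 and below. The sum of the family per kb overlapped between the groups, at 24.6 to 29.5 CPM per kb in the controls and 22.3 to 26.0 CPM per kb in the mutant libraries. The sum of the 4 *Mxd* genes overlapped as well, at 23.9 to 27.3 and 24.1 to 25.4 CPM per kb.

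Markers of cardiomyocytes, the contractile cells of the OFT wall, were lower in the mutant libraries, as *Mycn* was. The sum of 12 cardiomyocyte markers, among them the contractile genes *Myh7*, *Actc1*, *Tnnt2* and *Myl2*, was 31305, 29715, 29555 and 26604 CPM in control replicates 1 to 4. It was 22989, 20805, 22411 and 24864 CPM in mutant replicates 1 to 4, again with every mutant library below every control. With 4 libraries in each group, whether the sum follows *Mycn* within a group cannot be told and was not tested. Control replicate 1 had the highest sum and the lowest *Mycn* of the controls, 55.0 CPM against 55.8 CPM in replicate 4. Mutant replicate 4 had the highest sum and the lowest *Mycn* of the mutant group. None of the 12 markers was at 0. Of the 12, 9 had groups that did not overlap, all on the lower side, against 3.9% of all genes. At an unadjusted limma p under 0.05, 11 were lower, against 6.62% of all genes, but none at an adjusted p under 0.05. Markers of the same cell type can move together, so these are not counts of independent genes. *Myh7* alone held 33.2% to 36.0% of the sum. The list is not particular to the OFT wall and includes *Nppa*, a chamber myocardium marker, at 5.67 to 109 CPM in the mutant libraries. Which part of the heart these transcripts came from was not tested.

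*Mycn* was chosen for its difference and the sum of cardiomyocyte markers was lower too, so their ratio is a description only. Any gene lower to a like degree would give a similar ratio, whichever cells express it. Set against that sum, *Mycn* did not separate the groups. It read 1.76, 2.25, 1.97 and 2.10 CPM per 1000 CPM of cardiomyocyte markers in the controls and 2.14, 2.19, 1.93 and 1.69 in the mutant libraries. The means were 2.02 ± 0.209 and 1.99 ± 0.230 (SD, n = 4 each), a log2 difference of -0.024, where *Mycn* itself had -0.38. In bulk tissue, fewer cells of a type and less RNA per cell cannot be told apart. Among the other cell types, the 5 detected markers of the second heart field and pharyngeal mesoderm summed to between 66.1 and 87.0 CPM in the controls and to between 96.6 and 108.0 CPM in the mutant libraries, with log2 differences of 0.64 (SE 0.12) for the progenitor gene *Isl1* and 0.68 (SE 0.18) for *Osr1*. The sums of the other 8 marker lists overlapped between the groups, although single markers in them did not. On the higher side these were the smooth muscle gene *Myh11* and 1 marker of neural crest and neurons. *Myh11* was low, at means of 2.77 CPM in the controls and 5.16 CPM in the mutant libraries (log2 difference 0.78, SE 0.23). In the list of 8 endocardial and endothelial markers, 3 were lower at an unadjusted limma p under 0.05, against 6.62% of all genes. These were *Emcn* (-0.57), *Npr3* (-0.46) and *Plvap* (-0.44, log2 differences), each with overlapping groups. *Cdh5* (-0.08), *Tie1* (-0.10) and *Kdr* (-0.14) were not past that threshold, and *Tek* (0.11) and *Pecam1* (0.08) went the other way. The part of any of these shifts in the level of *Mycn* was not tested.

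**Figure D3:**
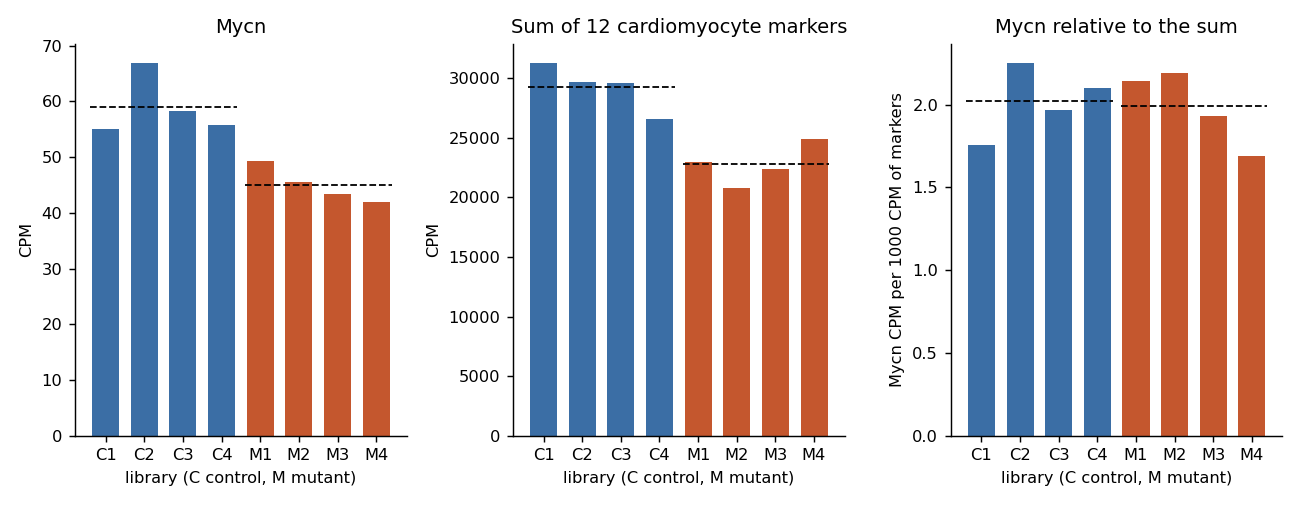
*Mycn* CPM, the summed CPM of 12 cardiomyocyte markers, and *Mycn* CPM per 1000 CPM of those markers, 1 bar for each library (C control, M mutant) with dashed lines for the group means. The first 2 panels separate the groups, whereas the ratio runs from 1.76 to 2.25 in the controls and from 1.69 to 2.19 in the mutant libraries.

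The genes most like *Mycn* were sought by Pearson correlation of log2(CPM + 0.5) over the 8 libraries, among the 11650 other genes that averaged 5 CPM or more. Among the closest were *4930452B06Rik* (r = 0.97), *Mrps15* (r = 0.96), a mitochondrial ribosomal protein gene, *Tuba4a* (r = 0.96), an alpha tubulin gene, and *Man2b2* (r = 0.96), a mannosidase gene. *Tuba4a* read 11.3 to 14.7 CPM in the controls and 7.43 to 9.34 CPM in the mutant libraries. These 4 genes were found by following the same difference between the groups, and all 4 were lower in the mutant libraries, with log2 differences from -0.52 for *Tuba4a* to -0.15 for *Mrps15*. When the group means were taken out first, the 5 genes whose deviations were most like those of *Mycn* were *Tecr* (r = 0.99), *Zfp61* (r = 0.97), *Nprl3* (r = 0.97), *Gm19680* (r = 0.96) and *Dnah1* (r = 0.95). None of the 4 genes was among these 5. The 8 libraries share depth and composition differences, of which control replicate 2 carries the greatest depth difference, and these coefficients are a description.

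Within the network, *Max* had the lowest correlation with *Mycn* over the 8 libraries (r = -0.80), and r = -0.50 after the group means were taken out. *Mxd1* had the highest, at 0.67 and 0.57. *Myc* showed little relation, at -0.13 and 0.16.

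Mutant replicate 1, the library with high *Mycl*, was also high in *Ptch1* and *Gli1*. *Ptch1*, the hedgehog receptor and a transcriptional target of the pathway, read 73.7 CPM in that library and 41.5 to 46.6 CPM in the other 7. *Gli1*, a transcription factor that is a standard readout of the pathway, read 27.2 CPM there and 2.21 to 4.09 CPM elsewhere. *Gli2*, another transcription factor of the pathway, read 35.4 CPM there, inside its range of 27.8 to 35.6 CPM in the other 7. These were the 2 genes with the highest correlation to *Mycl* over the 8 libraries (r = 0.99 for *Ptch1*, r = 0.97 for *Gli1*, sought after the value of *Mycl* had been seen), followed by *Macroh2a2*, *Scube3* and *Wasf3*. Over the 7 libraries without mutant replicate 1 the coefficients were 0.64 for *Ptch1* and 0.45 for *Gli1*, and the log2 differences of these genes went from 0.19 to 0.01 and from 0.52 to -0.25. The homeobox genes *Irx1*, at 38.5 CPM, and *Six2*, at 17.7 CPM, were high in the same library. *Mycn* in mutant replicate 1 was 49.3 CPM, the highest of the mutant group, and without this library the log2 difference of *Mycn* was -0.43.

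**Figure D4:**
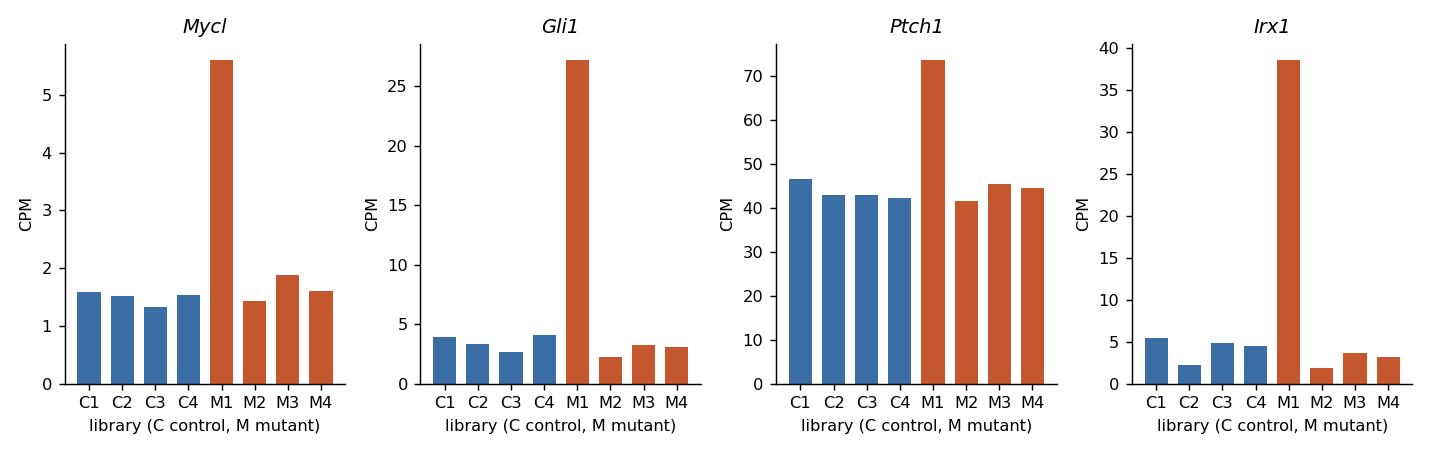
CPM of *Mycl*, *Gli1*, *Ptch1* and *Irx1*, 1 bar for each library (C control, M mutant). In all 4 panels mutant replicate 1 is the highest library, with *Mycl* at 5.60, *Gli1* at 27.2, *Ptch1* at 73.7 and *Irx1* at 38.5 CPM.

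Around the network, 11 lists of partners, regulators and reported target genes held 211 genes of the table. None was called at an adjusted p under 0.05 in limma. At an unadjusted limma p under 0.05, 12 were higher (5.69%, against 5.45% of all genes) and 6 lower (2.84%, against 6.62% of all genes). The 12 became 24 without the TMM factor, 7 without control replicate 2, 4 without control replicate 3, and 7 without mutant replicate 2 or replicate 3. The median log2 difference of the 211 genes was 0.006, beside 0.001 for all genes. Of the 211 genes, 11 had groups that did not overlap on the higher side and 4 on the lower side. Over all genes these shares were 3.2% and 3.9%. Every gene of these lists named below failed the correction for multiple tests and is given with its values only. For those picked by smallest p, groups that do not overlap follow largely from that choice.

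The classical output of MYC proteins, ribosome biogenesis, was represented by 48 genes. Of these, 27 had a positive difference, the median was 0.016, and the whole list lay between -0.21 and 0.20. Without mutant replicate 1, 21 had a positive difference and the median was -0.013. *Utp20*, a component of the small subunit processome, was the single gene at an unadjusted p under 0.05, at 56.9 ± 4.34 CPM in the controls and 65.6 ± 4.86 CPM in the mutant libraries. Among 29 genes of nucleotide and polyamine synthesis the median was -0.02, and 2 were past the unadjusted threshold. *Tyms*, thymidylate synthase, was at 50.9 ± 1.36 CPM in the controls and 57.2 ± 3.51 CPM in the mutant libraries. *Adsl*, an enzyme of purine synthesis, was at 63.6 ± 5.33 and 51.9 ± 11.3 CPM, with overlapping groups and its lowest value, 36.5 CPM, in mutant replicate 2.

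Of 24 genes of amino acid uptake and translation (*Mars1*, on the list, was not found under that symbol), 9 had a positive difference and the median was -0.04. *Eif4ebp1*, the translational repressor 4E-BP1, was at 93.8 ± 11.5 CPM in the controls and 78.4 ± 3.71 CPM in the mutant libraries, and *Phb2*, a mitochondrial prohibitin, at 214 ± 18.8 and 187 ± 14.8 CPM. *Eif2s1*, the alpha subunit of initiation factor eIF2, was higher, at 106 ± 6.41 and 123 ± 7.44 CPM. The groups of all 3 genes did not overlap.
Of 20 cell cycle targets, 14 had a positive difference, with a median of 0.02, and 9 without mutant replicate 1. *Cdca7* was at 42.8 ± 2.78 CPM in the controls and 49.8 ± 4.94 CPM in the mutant libraries, *Id2*, an inhibitor of differentiation, at 203 ± 17.3 and 227 ± 7.18 CPM, and *Mcm4* of the replicative helicase was the third past the unadjusted threshold.
Of 15 genes that MYC proteins are known to repress, 5 had a positive difference, 8 without mutant replicate 1, and *Ndrg4*, of the N-myc downstream regulated gene family and abundant in cardiac muscle, was at 264 ± 20.1 and 223 ± 10.6 CPM with groups that did not overlap.

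Genes that act on MYC proteins or with their antagonists were similarly spread. Among 16 genes of MYC protein turnover, *Skp2*, a ubiquitin ligase subunit that targets MYC, read 59.8 to 66.4 CPM in the controls and 70.2 to 85.8 CPM in the mutant libraries, a log2 difference of 0.26 (SE 0.08). The deubiquitinases *Usp7* and *Usp28* went opposite ways, with log2 differences of 0.15 (SE 0.06) and -0.21 (SE 0.07). Each of these 3 genes had groups that did not overlap, while *Fbxw7*, which encodes the best known MYC ligase, was at 23.7 ± 0.384 and 23.3 ± 1.22 CPM. Of 15 genes of the SIN3 corepressor, which MXD proteins recruit, the histone deacetylase gene *Hdac2* was at 178 ± 12.7 CPM in the controls and 213 ± 18.5 CPM in the mutant libraries. Of 12 genes of the Polycomb complex that contains MGA, *Cbx3* was at 255 ± 41.2 and 299 ± 27.3 CPM with overlapping groups. None of 16 coactivator genes and none of the 3 genes of the parallel network of *Mlx* was past the unadjusted threshold, and *Mlx*, which pairs with some MXD proteins and MNT, read 19.7 to 23.3 CPM in the controls and 21.0 to 23.7 CPM in the mutant libraries.

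Among 13 regulators of *Mycn* in the developing heart, 10 had a positive difference, with a median of 0.14. Without mutant replicate 1 these were 9 and 0.04, and *Gli1* and *Ptch1* are both on this list. *Bmp10*, a trabecular growth factor of the atria and ventricles that is needed for cardiomyocyte proliferation, read 86.8, 42.4, 49.3 and 33.6 CPM in the controls and 25.1, 3.13, 9.10 and 44.1 CPM in the mutant libraries. Mutant replicate 4 lay within the controls and replicates 2 and 3 far below them, and the log2 difference of -1.83 (SE 0.60) was the largest of the 211 genes. *Nppa*, a chamber myocardium marker, had the same order of mutant libraries, at 61.9, 5.67, 8.68 and 109 CPM. *Smad4* and *Smad5*, signal transducers of the BMP pathway, were at 93.9 ± 4.87 and 142 ± 6.39 CPM in the controls and at 105 ± 3.21 and 156 ± 6.25 CPM in the mutant libraries, with groups that did not overlap. *Tbx20*, which restrains *Tbx2* in the myocardium, was at 617 ± 68.9 and 653 ± 50.4 CPM, and *Tbx2* at 30.7 ± 3.84 and 33.2 ± 6.76 CPM.

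**Figure D5:**
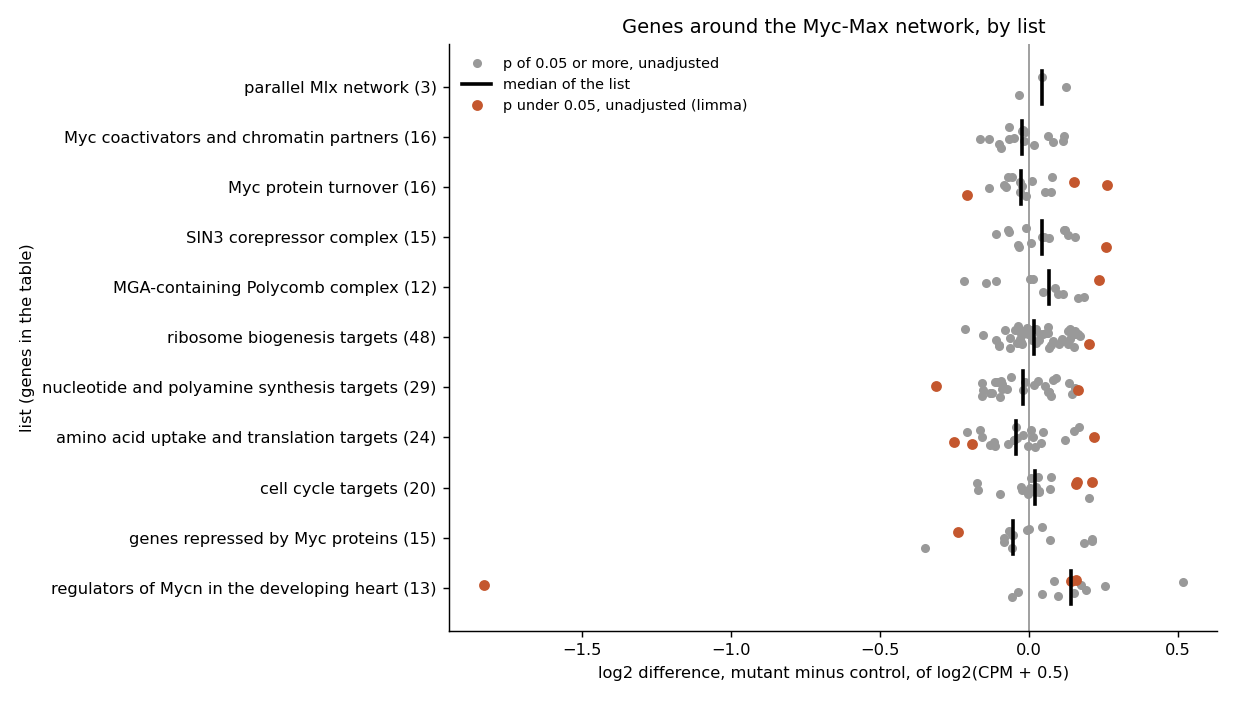
Log2 difference, mutant minus control, of every gene of the 11 lists (1 point a gene, with the number of genes in brackets), coloured where the unadjusted limma p was under 0.05, with a black line for the median of each list. The medians lie between -0.05 and 0.14, and *Bmp10* stands apart at -1.83.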

How the data were processed

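RNA of E11.5 mouse OFT, 4 control and 4 mutant libraries, was sequenced as 60 bp single-end reads from a directional poly-A kit. The authors removed adapters with cutadapt, quantified genes with RSEM on GRCm38 with Ensembl genes, removed genes that did not reach 1 CPM in 3 or more libraries and applied TMM scaling. The deposited values are CPM per gene and library, TMM factor included, for 14608 genes. Whether counting used strand is not given in the sources used here. TMM assumes that most genes do not differ, and values from 1 scaling move together.

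Log2(CPM + 0.5) was fitted with limma 3.58.1 (lmFit, eBayes with trend, R 4.3.3), two-sided, with Benjamini-Hochberg adjustment over all genes and a threshold of 0.05. The fit was also run on simulated counts, drawn independently with the same fixed spread setting for every gene and without outlier libraries. That setting is simpler than these data, so the run does not bear on the absence of calls. Depth was estimated from the spacing of the values, of which 100% were whole multiples of 1 step within 0.01 of a read, but the lowest values show that step directly in only some libraries, so no count model is reported and no counting interval is given. Gene positions, merged exon lengths and GC content came from GENCODE M21 (GRCm38).

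The 10 network genes and the lists were chosen with earlier results of these data known. Named genes were all network genes, up to 2 higher and 2 lower genes of each list with the smallest p among those at an unadjusted p under 0.05, the 5 genes most like *Mycn* by either correlation (1 of them is not reported here), and *Gata6* and *Mib1*. Genes used only as comparison were chosen after their values were seen. These were *Mcm4*, *Fbxw7*, *Mlx*, *Tbx20*, *Tbx2*, *Gli2*, *Isl1*, *Osr1*, *Myh11*, the endocardial markers, *Irx1*, *Six2*, *Nppa* and the genes like *Mycl*. Alternatives were other pseudocounts, a filter at a mean of 5 CPM, values without the TMM factor, removal of the GC trend (loess, span 0.3), each library left out, and the replicate number as a block.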

Additional observations from a re-analysis of the deposited data

Results flagged for a closer look

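Of 112 groups of 4 libraries checked, 15 had 1 library far from the other 3 by Dixon's criterion, where chance gives about 1 in 20 groups. That share does not apply as it stands, because *Irx1*, *Six2*, *Ptch1* and *Gli1* were picked for mutant replicate 1, and *Tuba4a*, *Zfp61* and *Nprl3* for following *Mycn*, which is highest in control replicate 2. Within the network these were *Mycl*, with 5.60 CPM in mutant replicate 1, and *Mxd4*, with 92.9 CPM in control replicate 3. Mutant replicate 1 was also the distant library for *Gli1* at 27.2 CPM, *Ptch1* at 73.7 CPM, *Irx1* at 38.5 CPM and *Six2* at 17.7 CPM. *Ptch1* had a distant control as well, replicate 1 at 46.6 CPM. Control replicate 2, the shallowest library, was the distant one for *Phb2* at 242 CPM, *Cdca7* at 38.7 CPM, *Tuba4a* at 14.7 CPM, *Zfp61* at 18.7 CPM and *Nprl3* at 29.97 CPM. Mutant replicate 2 was the distant one for *Hdac2* at 241 CPM and for the summed macrophage markers at 47.3 CPM. Mutant replicate 4 was the distant one for the summed markers of pharyngeal epithelium at 86.7 CPM, of which 3 of the 7 listed markers were in the table.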

How the results depend on the processing

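At an adjusted p under 0.05, limma called 0 of 14608 genes in the fit as reported and under every alternative run, beside 796 higher and 967 lower at an unadjusted p under 0.05. Without the TMM factor that split became 1161 higher and 740 lower, with the median of all genes at 0.02 on the log2 scale. The difference of *Mycn* lay between -0.43 and -0.31 under 15 alternatives. Set against the cardiomyocyte markers, which were lower too, it was -0.024, a value that follows from both differences. That ratio was chosen after seeing the data, as were the correlations with *Mycl* over 7 libraries. For the other 9 genes, values moved by less than the spread between replicates in all but *Mnt* (*Mycl* is lost to the filter at 5 CPM), which went to 0.03 with the GC trend removed, with or without the block. For *Mycl* that spread is itself widened by mutant replicate 1, without which its difference went from 0.48 to 0.10. The block leaves every difference unchanged by construction, since each replicate number holds 1 library of each group. The number of network genes whose groups do not overlap ranged from 1 to 3 with each library left out, while the share of all genes ranged from 8.84% to 14.6%. The list genes higher at an unadjusted p under 0.05 numbered 12 in the fit as reported, 24 without the TMM factor, 4 with the replicate block, and 4 to 17 with each library left out (7 without control replicate 2, 4 without control replicate 3, 7 without mutant replicate 2 and 7 without mutant replicate 3). The lower ones numbered 4 to 9 under all alternatives. The cause of these shifts was not tested. Count models, listed as alternatives, are not reported because whole reads could be shown from the lowest values in only part of the libraries. Group overlap has no separate value under another pseudocount or the block. Depth limits *Mycl*, near 1.5 CPM, more than the other 9 genes.

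The series design speaks of pairs of samples, and the replicate number was tried as the pairing. So few libraries cannot show whether the samples were collected as pairs. Deviations from the group means of same-numbered libraries correlated at 0.035, -0.185, 0.027 and -0.045, none above 0.1. With the replicate number as a block limma called 0 genes, 1304 at an unadjusted p under 0.05 in place of 1763, and the difference of *Mycn* was -0.38.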
